A study of Drosophila melanogaster with 3 samples.

Results

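The 7 dosage compensation genes of Drosophila melanogaster were examined in chromatin immunoprecipitation sequencing (ChIP-seq) of CG17385. They are msl-1, msl-2, msl-3, mle, mof and the noncoding RNA genes lncRNA:roX1 and lncRNA:roX2, chosen by name from 23973 annotated genes on the main chromosome arms. All 3 samples belong to 1 group. The labels number them biological replicates 1, 2 and 3, of intact embryos collected at 0 to 24 h with males and females mixed, from a transgenic line that carries CG17385 fused to GFP at its C terminus. Sonicated chromatin had a labelled size range of 200 to 800 bp. What drives the fusion gene, and how its level compares with that of the endogenous protein, are not given in the labels. There was no second condition, so every comparison is between genes or between peaks. The labels conflict on what was sequenced: the free text calls each sample an input control, but the assay title and the antibody name a ChIP of CG17385, which is how the lists were taken. Each replicate had its own list of peaks and background of 30000 entries, the pooled list had as many, and the list kept by the irreproducible discovery rate (IDR), a measure of agreement between replicates, had 7588. All 7588 IDR peaks were the strongest 7588 of the pooled list, so the IDR list amounts to a cut on pooled signal at 159.9.

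In flies, males raise the output of their single X chromosome to match that of females. The MSL complex does this: MSL1 is its scaffold, MSL2 its male-specific recognition subunit, MSL3 a chromodomain subunit, MOF the acetyltransferase for histone H4 and MLE an RNA helicase that remodels the roX RNAs. Sex-lethal (Sxl) blocks translation of msl-2 in females, so the complex assembles in males. Both roX genes lie on the X and hold GA-rich entry sites to which the complex is recruited, with help from the zinc finger protein CLAMP. Male and female embryos were not separated here, and a site bound in few cells cannot be told apart from one bound weakly in many.

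A summit, the highest position of a peak, was counted at a gene if it lay in the gene body or within 5 kb of it, and a promoter peak was a summit within 500 bp of one of the gene's own start sites. Signal is the authors' score for a peak, whose scale is not stated, and it compares peaks within a list. The sequences that follow show 4 stretches at pooled summits in or beside the members' own transcription units, and the densest cluster of GAGAG in each roX gene, since GA repeats are part of the known entry sites of the MSL complex. They are RefSeq bases of Release 6 (dm6), plus strand, 5′ to 3′. Capitals mark matches, on either strand, to the motifs searched: GAGAG with its longer forms GAGAGA and GAGAGAGA and GAGAGAGAT, then TATCGATA with CGATA and with ATCGAT (of the DREF type), CAGGTAG (of the Zelda type) and GGTCACAC (a core promoter motif of housekeeping genes).
msl-1 promoter, chr2L:18688801-18688953: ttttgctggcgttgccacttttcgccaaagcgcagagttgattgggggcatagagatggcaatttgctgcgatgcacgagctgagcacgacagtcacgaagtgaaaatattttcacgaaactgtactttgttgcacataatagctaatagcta
roX1 exon summit, chrX:3862443-3862643: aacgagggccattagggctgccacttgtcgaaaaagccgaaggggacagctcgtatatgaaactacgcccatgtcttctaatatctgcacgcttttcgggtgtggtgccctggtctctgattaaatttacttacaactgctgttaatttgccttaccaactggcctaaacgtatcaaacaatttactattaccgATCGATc
roX1 GAGAG cluster, chrX:3861237-3861365: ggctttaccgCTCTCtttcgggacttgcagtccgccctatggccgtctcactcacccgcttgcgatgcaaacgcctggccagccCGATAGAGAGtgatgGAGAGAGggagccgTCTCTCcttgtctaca
roX2 start, chrX:11579011-11579211: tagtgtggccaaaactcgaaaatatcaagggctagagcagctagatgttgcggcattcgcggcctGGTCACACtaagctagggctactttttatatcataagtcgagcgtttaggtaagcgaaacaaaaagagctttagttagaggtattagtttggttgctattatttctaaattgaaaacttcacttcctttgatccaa
roX2 GAGAG cluster, chrX:11580194-11580283: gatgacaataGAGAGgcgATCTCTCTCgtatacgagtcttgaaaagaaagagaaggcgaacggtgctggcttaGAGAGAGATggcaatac
roX2 end, chrX:11580397-11580597: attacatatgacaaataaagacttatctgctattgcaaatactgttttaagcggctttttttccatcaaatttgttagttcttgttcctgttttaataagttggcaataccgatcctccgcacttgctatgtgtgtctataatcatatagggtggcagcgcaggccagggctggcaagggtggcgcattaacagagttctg
The msl-1 promoter is written as the plus strand of a minus-strand gene, so transcription starts just before its first base and runs leftwards.

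Pooled CG17385 summits were in reach of 5 of the 7 genes, and msl-2 and msl-3 had none. An IDR summit was counted at msl-1, mof and roX2, 3 of 7 members. Among the protein-coding members the count was 2 of 5, against 57.6% of all protein-coding genes and 62.3% of those as long as these members (2321 to 5922 bp). Of the noncoding members 1 of 2 had one, against 44.0% of noncoding RNA genes. With the pooled list the counts were 3 of 5 protein-coding members, against 81.0% of protein-coding genes, and 2 of 2 noncoding members, against 78.2% of noncoding genes. No member had an IDR promoter peak, whereas 26.9% of protein-coding and 10.6% of noncoding genes did. The 5 IDR summits at the members lay outside all 7 gene bodies, and each was nearest to the start site of another gene. Over all pairs of an IDR summit and a gene in reach, the nearest start site was that gene's own in 31.4%. With 5 coding genes, 2 noncoding genes and 5 IDR summits, none of these counts can be told from its background share. A further 12 pooled summits at the members were outside the IDR list, 4 of all 17 pooled summits lay in a member's body and 4 lay within 500 bp of a member's own start.

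**Figure D1:**
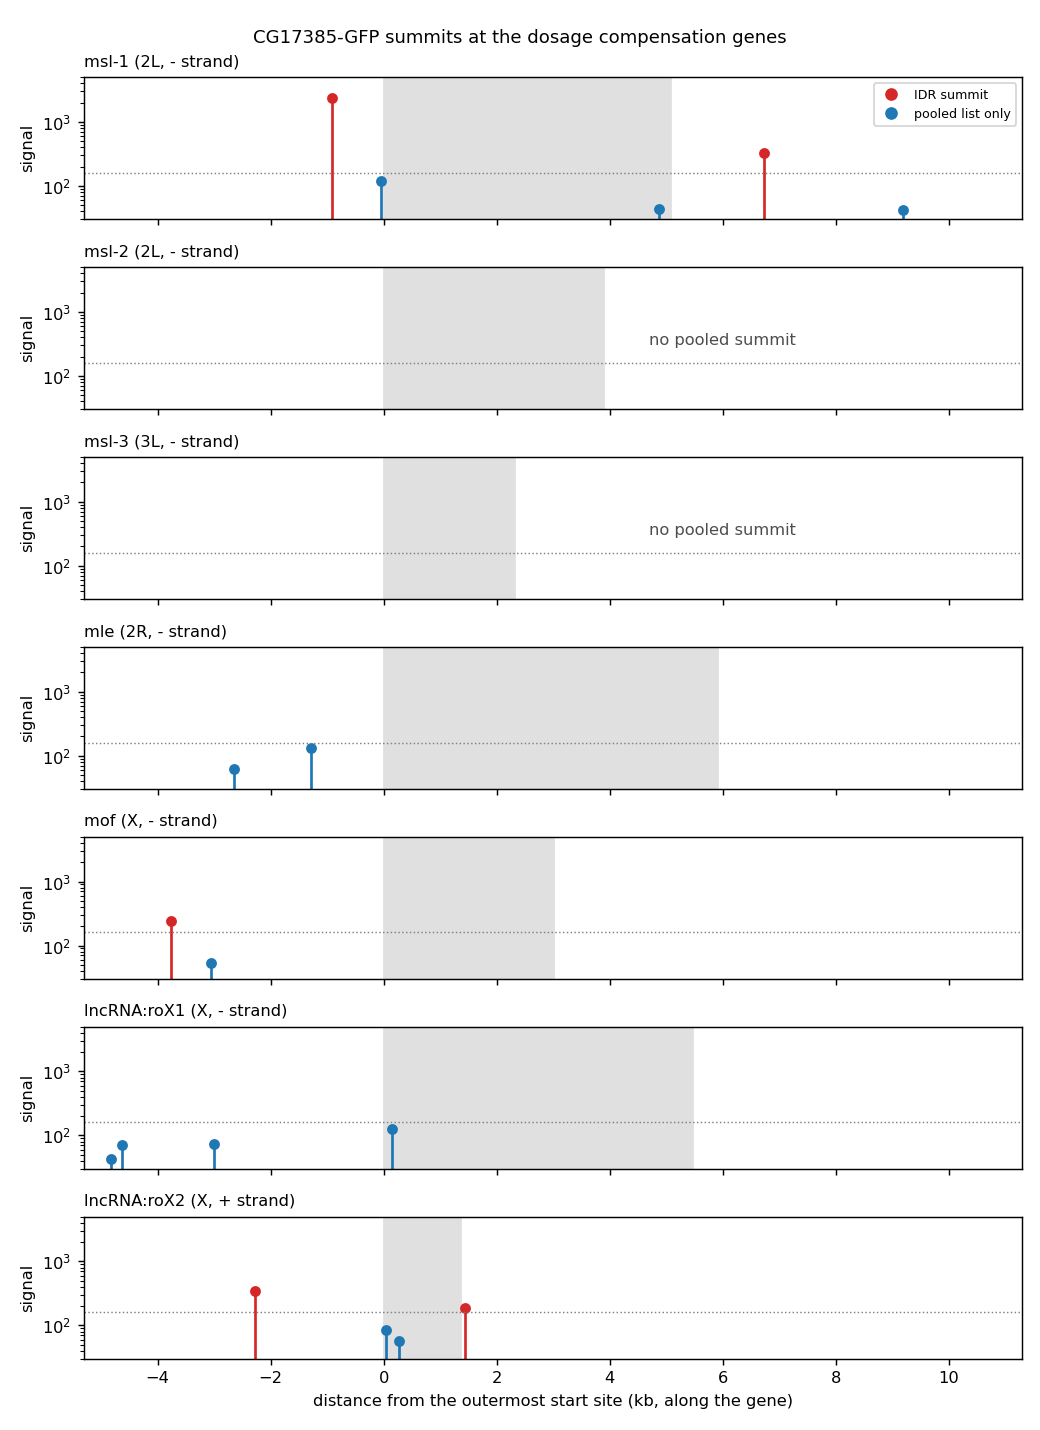
Signal of each pooled summit (log scale, authors' score) against its distance in kb from the outermost start site of each gene, in the direction of transcription; grey marks the gene body, the dotted line the lowest IDR signal, red points IDR summits and blue points summits of the pooled list alone. No red point lies in a grey body, the highest (2368) lies 907 bp before msl-1, and msl-2 and msl-3 have no point.

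The strongest summit near any member was at msl-1, the gene of the scaffold subunit (FBgn0005617, 2L, 18683720 to 18688800, minus strand). It lay at 18689707 with a signal of 2368 and ranked 118 in the pooled and IDR lists, and it was found in every replicate. In the order of replicates 1, 2 and 3 its rank was 156, 89 and 127. The percentile, the percent of peaks in the same list with a weaker signal, was 99.6 ± 0.112 (SD, n = 3), so the replicates placed it almost alike. This summit is 907 bp upstream of the msl-1 start and 16 bp past a start site of CG10336, the gene transcribed the other way, in whose 5′ UTR it falls. The peak interval (18689471 to 18689935) does not reach the msl-1 start.

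At the msl-1 start itself the signal was far lower. A pooled summit 53 bp upstream of the start, in the promoter printed above, ranked 10148, with a signal of 120 (−log10 q 2.18). It was matched within 100 bp at rank 17774 in replicate 2 and at rank 7406 in replicate 3. Replicate 1 had its nearest summit 104 bp away, at rank 24799. The replicates thus placed a weak summit at the msl-1 start in different parts of their lists, and the stretch printed held none of the motifs searched.

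Downstream of msl-1 the second IDR summit (18682077, signal 327, rank 3313) lay 1643 bp past the gene's end, 2 bp upstream of the start of tos, which encodes an exonuclease, and within an intron of CG31751. It ranked 3613, 3023 and 3707 in replicates 1, 2 and 3, a percentile of 88.5 ± 1.24 (SD, n = 3). Its window, 100 bp to either side of the summit, held GGTCACAC, which 1.77% of IDR windows of the same size and 0.910% of the other pooled windows held. The last 2 pooled summits of msl-1, in its 3′ UTR (18683925) and in an intron of CG31751 (18679608), had signals of 43.9 and 42.6, close to the lowest of the pooled list (41.5).

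The genes of the male-specific subunit and of the chromodomain subunit had no pooled summit in reach. At msl-2 (FBgn0005616, 2L, 3462218 to 3466112, minus strand) the nearest pooled summits lay 17230 bp from the low end of the gene (rank 8020) and 6347 bp from its high end (rank 7875). That leaves 27471 bp without one. Of all neighbouring pooled summits 2.03% lie at least as far apart. A gap picked because it holds a gene tends to be long, so this share does not make the gap unusual. By the same 5 kb rule a pooled summit was in reach of 81.0% of protein-coding genes, so a gene without one is not rare. Replicate 3 alone had summits in the msl-2 window. Those at 3466154 (rank 12221) and 3466481 (rank 15378) lie 42 and 369 bp upstream of the msl-2 start, where the start of ND-PDSW, a gene of respiratory complex I, is 3 bp from the first of them. The third, at 3457229, ranked 2396 in replicate 3 with a −log10 q of 3.71, 73 bp upstream of the start of Sec5, an exocyst gene. Replicate 1 had a summit 60 bp from it, at 3457169 with rank 2993, which falls 5049 bp from msl-2 and so just outside the window. Of the 2396 replicate 3 peaks at least as strong, 37 (1.54%) had no pooled summit within 100 bp, and this was one of them.

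At msl-3 (FBgn0002775, 3L, 7123213 to 7125533, minus strand) the gap between pooled summits was 18178 bp. Of all neighbouring pooled summits 4.29% are at least as far apart, a share with the same limit as at msl-2. Replicate 1 had no summit in the window. Replicate 2 had 1, at 7128805 (rank 16404), 98 bp upstream of the start of Acbp6, an acyl-CoA binding protein gene. Replicate 3 had 2, at 7129102 (rank 26516) and at 7125606. The summit at 7125606 lies 73 bp upstream of the msl-3 start and ranked 28891 of 30000. No summit at msl-3 was matched within 100 bp in another replicate.

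The acetyltransferase gene mof (FBgn0014340, X, 5873840 to 5876853, minus strand) had 1 IDR summit, far upstream. It lay at 5880621, 3768 bp before the mof start, with a signal of 239 and rank 4786, and 87 bp past a start site of CG16721 in that gene's 5′ UTR. It ranked 7553, 3569 and 5913 in replicates 1, 2 and 3. The percentiles were 74.8, 88.1 and 80.3, a mean of 81.1 ± 6.67 (SD, n = 3). A weak pooled summit at 5879906 (signal 53.7, rank 23147) lay 37 bp past a start of CG16721 and 119 bp upstream of Usp30, a deubiquitinase gene, in a window that held TATCGATA, a motif of 2.62% of IDR windows and 1.07% of the other pooled windows. Near it, replicates 1 and 3 agreed to within 5 bp on a summit with no pooled summit within 100 bp. It lay at 5879708 (rank 3790) in replicate 1 and 5879703 (rank 6117) in replicate 3. Both positions fall inside the interval of the weak pooled peak (5879686 to 5880125). Of the peaks at least as strong, 3.54% in replicate 1 and 4.04% in replicate 3 had no pooled summit within 100 bp. The nearest replicate 2 summit was the one at 5880629. No list held a summit in the mof body, and the closest to it, that of replicate 3, was 2850 bp away.

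The helicase gene mle (FBgn0002774, 2R, 5974857 to 5980778, minus strand) had no IDR summit in reach, the nearest being 36838 bp from its high end. Its strongest pooled summit was at 5982055, 1277 bp upstream of the mle start, with a signal of 133 and rank 9125. This lies 211 bp past a start of Src42A, a tyrosine kinase gene, in its 5′ UTR. Replicate 3 had a summit 28 bp away at rank 8406, while those of replicates 1 and 2 were 126 bp (rank 7809) and 134 bp (rank 16302) away, just beyond the 100 bp match. All 3 replicates therefore had a summit between 77 and 337 bp past the Src42A start, spread more widely than at msl-1. A weaker pooled summit at 5983422 (signal 61.1) in an intron of Src42A was matched in replicates 1 and 2. Replicate 2 alone had a summit at 5974532 (rank 5045), 325 bp past the mle 3′ end and 147 bp upstream of BubR1, a spindle checkpoint gene. Of the replicate 2 peaks at least as strong, 3.07% had no pooled summit within 100 bp.

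Apart from the weak one in the msl-1 3′ UTR, the pooled summits inside members' bodies were in the roX genes. At roX1 (FBgn0019661, X, 3857230 to 3862697, minus strand) the strongest pooled summit lay in an exon at 3862543, 154 bp past the outermost start and 118 bp upstream of the next of its 3 annotated starts. Its signal was 124, its −log10 q 2.31 and its rank 9807, outside the IDR list. Replicate 1 had it at percentile 47.8 and replicate 3 at 45.6, and replicate 2 had a summit 126 bp away at percentile 75.7, closer to the outermost start. The 3 replicates thus all had a summit in the first part of roX1, stronger within its list in replicate 2 than in replicates 1 and 3. The window printed holds ATCGAT, as do 8.12% of IDR windows and 6.46% of the other pooled windows. The other 3 pooled summits in reach of roX1 (signals of 42.9 to 73.6) lay in introns of yin, a peptide transporter gene.

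At roX2 (FBgn0019660, X, 11579065 to 11580432, plus strand) 2 IDR summits flanked the gene, both nearest to the starts of neighbours. The stronger, at 11576789 with a signal of 342 and rank 3139, lay 2276 bp upstream, between CG11695 (94 bp) and e(y)2 (169 bp), a gene whose product works in the SAGA coactivator and in mRNA export. Replicates 1 and 3 had it at percentiles 91.1 and 88.3, and the nearest replicate 2 summit was 2597 bp away. The weaker, at 11580497 with a signal of 189 and rank 6288, lay 65 bp past the roX2 3′ end and 275 bp upstream of nod, which encodes a kinesin-like protein. It was found in every replicate, at percentiles 84.7, 73.4 and 72.1 (76.7 ± 6.93, SD, n = 3).

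Inside roX2, a pooled summit 46 bp past the start had a signal of 84.9 and rank 14409 (−log10 q 1.29). Another 268 bp past the start had a signal of 56.9 (−log10 q 0.599). Both fell short of a −log10 q of 2, which 10775 of the 30000 pooled peaks reached. The summit at 46 bp was matched at rank 8359 in replicate 1 and at rank 29379 in replicate 3, so its 2 replicates disagreed by most of the list. The start window holds GGTCACAC. The window at the roX2 end holds no match to any motif searched.

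No summit of the pooled list lay on the GAGAG clusters of the roX genes. In roX2 the body holds 6 GAGAG matches, overlaps counted, or 4.39 per kb, against a median of 1.29 per kb in noncoding genes of at least 1 kb, of which 6.10% are as dense. The 5 matches of the cluster (11580204 to 11580273) lie 228 to 293 bp from the IDR summit past the gene's end. The cluster holds GAGAGAGAT 2 times, a motif present in the windows of 0.593% of IDR summits and 0.433% of the other pooled summits. Across the 3 replicate lists no summit came nearer than 182 bp to the 5 matches. In roX1 the 5 GAGAG matches (0.914 per kb, as dense in 64.6% of noncoding genes) all lie between 3861247 and 3861355, with no GAGAGAGA among them, and the nearest pooled summit was 1192 bp away. Replicate 1 had a summit at 3861314, 12 bp from a match, at rank 14542 with a −log10 q of 1.26. The nearest summits of replicates 2 and 3 were over 1 kb from the cluster, so this one was not repeated.

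**Figure D2:**
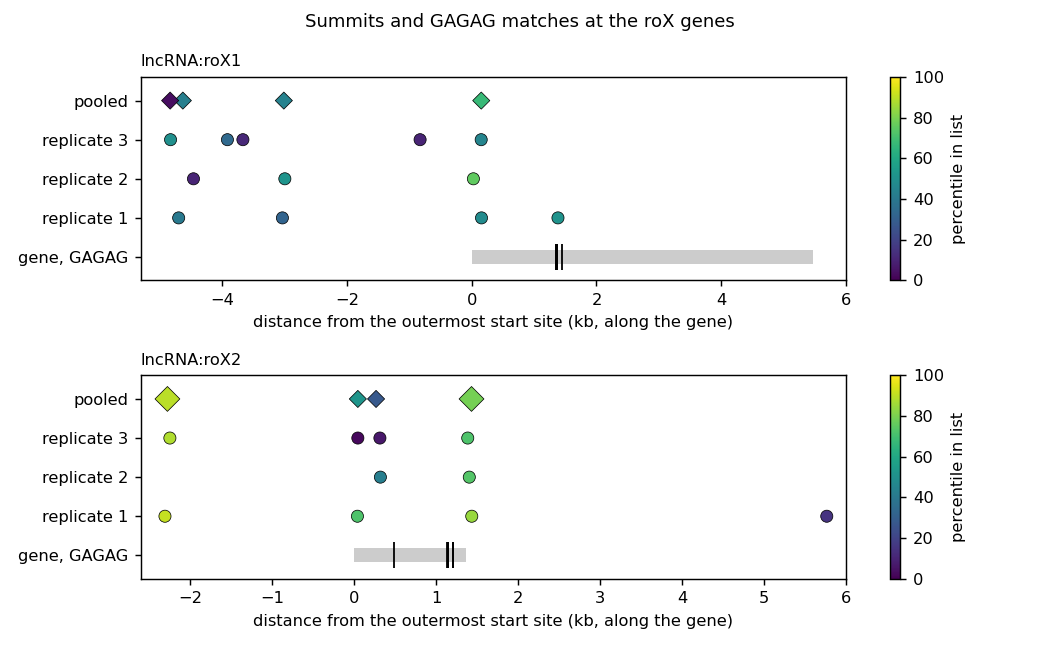
Positions of summits in the pooled list (diamonds, larger where in the IDR list) and in the 3 replicate lists (circles), coloured by percentile within their list, against distance in kb from the outermost start of roX1 and roX2; the grey bar is the gene and black ticks are GAGAG matches. The roX2 cluster has no summit on it in any list, and the roX1 cluster has 1, in replicate 1. Peak intervals are not drawn, and that of the IDR peak past the roX2 end begins just past the cluster.

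GAGAG was found in the windows of 2 of the 17 member summits. None of the 5 IDR windows held GAGAG, against 28.3% of all IDR windows, and 2 of the other 12 windows did, against 25.0% of pooled windows outside the IDR list. Of the 9 motifs searched, the IDR windows at members held GGTCACAC once, at tos, and no other. A missing match says that these letters are not in this window.

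Ordered by the pooled signal of the strongest summit in reach, the members ran msl-1 (2368), roX2 (342), mof (239), mle (133) and roX1 (124), with msl-2 and msl-3 without one. Of these summits, only that of roX1 was nearest to a start of the member itself, and the others were nearest to starts of neighbouring genes. The mean percentiles of the matched replicate summits fell in the same order, at 99.6, 89.7, 81.1, 72.0 (1 replicate only) and 46.7. The pooled list was made from the same replicates, so this is no independent support for the order. The value for roX1 leaves out replicate 2, whose unmatched summit nearby was at percentile 75.7. That for roX2 also leaves out replicate 2, whose nearest summit was 2597 bp away. In replicate 2 mof was at percentile 88.1, so that replicate does not place roX2 above mof. Neighbours in this order shared at most 2 replicates with a matched summit. In both shared replicates msl-1 lay above roX2, by 9.85 ± 2.05 percentile points (SD of the difference, 2 pairs), and roX2 above mof, by 12.1 ± 5.85. The members were sorted by a signal made from these replicates, and only replicates with both matches were kept. Positive differences were therefore likely from the start. With 2 pairs a 2-sided exact permutation test by sign flips cannot go below p = 0.5, so no step of the order could be tested. The steps from mof to mle and from mle to roX1 had 1 shared replicate each, and so no spread. Among pooled summits nearest to a member's own start, the strongest had signals of 124 at roX1, 120 at msl-1 and 84.9 at roX2. By that rule mof and mle had none. Of the members' IDR summits 4 of 5 were found in every replicate, against 88.6% of all IDR summits. None of the 12 others was, against 17.8% of pooled summits outside the IDR list.

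**Figure D3:**
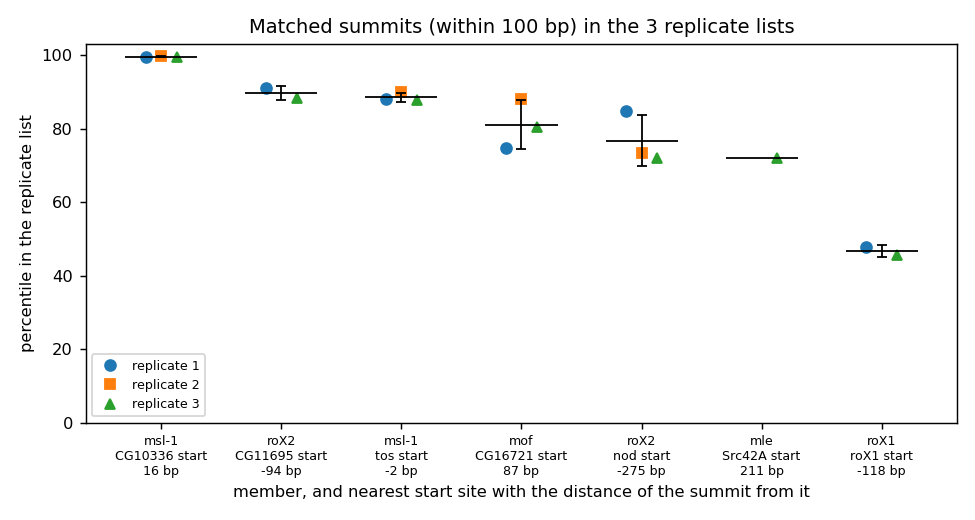
Percentile within each replicate list of the matched summit (within 100 bp) for the 5 IDR summits at members and for the strongest summit of mle and roX1, with horizontal bars for the mean and whiskers for the SD where at least 2 replicates had a match. The summit near msl-1 sits above 99 in all 3 replicates, and 3 summits lack a match in at least 1 replicate: that upstream of roX2 and those of mle and roX1.

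**Figure D4:**
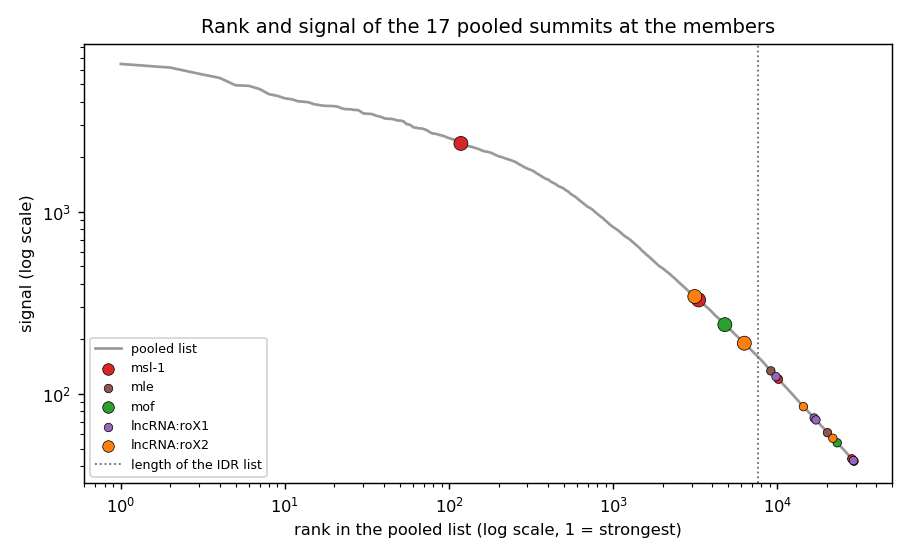
Signal against rank, both on log scales, for the pooled list (grey line) and the 17 pooled summits at members (points, larger where in the IDR list); the dotted line marks the length of the IDR list. The summit near msl-1 (rank 118) stands well to the left of the other 16, which begin at rank 3139.

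Promoter peaks were also counted in 3 lists of genes. These were recruitment and regulation of the MSL complex, the NSL complex, and sex determination with X counting. Of 14 genes listed under recruitment and regulation of the MSL complex, 8 (57.1%) had an IDR promoter peak, against 26.9% of protein-coding genes. Their median signal was 658, against 382 over all protein-coding genes with such a peak. The strongest was at Set2, a histone H3 methyltransferase whose mark the chromodomain of MSL3 recognises (signal 2335, rank 122, 49 bp upstream of a start, percentile 99.6 ± 0.0935, SD, n = 3). Trl, the gene of the GA-binding GAGA factor, followed with a signal of 1822 (99.1 ± 0.157, SD, n = 3). Sxl, the repressor of msl-2 translation, had a signal of 736 at a summit 399 bp past a start (96.1 ± 0.450, SD, n = 3). Nup153, a nuclear pore gene, had 733 (95.8 ± 1.33, SD, n = 3). All 4 were found in every replicate. Unr, JIL-1, how and the gene of heterochromatin protein HP1a also had a promoter peak, and Clamp, Mgtor, Pof, Su(var)3-7, Su(var)3-9 and Top2 had none.

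The NSL complex is the other complex that contains MOF, and it acts at promoters in both sexes. Of the 8 genes listed under the NSL complex, not all of which need be its subunits, 5 (62.5%) had an IDR promoter peak. The share over protein-coding genes was 26.9%. The median signal of the listed genes with a peak was 829, against 382 over all protein-coding genes with such a peak. Chro, a chromodomain protein gene, had the strongest of the list (signal 3172, rank 48, 129 bp upstream of a start, percentile 99.8 ± 0.0302, SD, n = 3). It was followed by Rcd1 with 1250, wds with 829 and Rcd5 with 285, each found in every replicate. The peak of pzg was the weakest of these 5, and MBD-R2, dgt1 and nsl1 had none.

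The third list held genes of sex determination and of the counting of X chromosomes, not all of which act upstream of msl-2. Of 17 genes 6 (35.3%) had an IDR promoter peak, against 26.9% of protein-coding genes. The median signal of these peaks was 286, below that of all protein-coding genes with one (382). The 6 genes were led by gro, a corepressor gene, with a signal of 1247 (98.1 ± 0.304, SD, n = 3), and by Sxl, which is also in the recruitment list. The next were fl(2)d, a splicing cofactor gene of the Sxl pathway, with 294, matched in replicates 2 and 3 but not 1, and emc, an inhibitor of helix-loop-helix proteins, with 278. The genes dsx and da had weaker ones, and dpn, her, ix, run, sc, sisA, snf, tra, tra2, upd1 and vir had none. In all, 18 of the 38 distinct genes in the 3 lists had an IDR promoter peak. The lists were chosen with earlier results of these data known and were not tested against the rest of the genome. Their counts are therefore no evidence of enrichment.

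**Figure D5:**
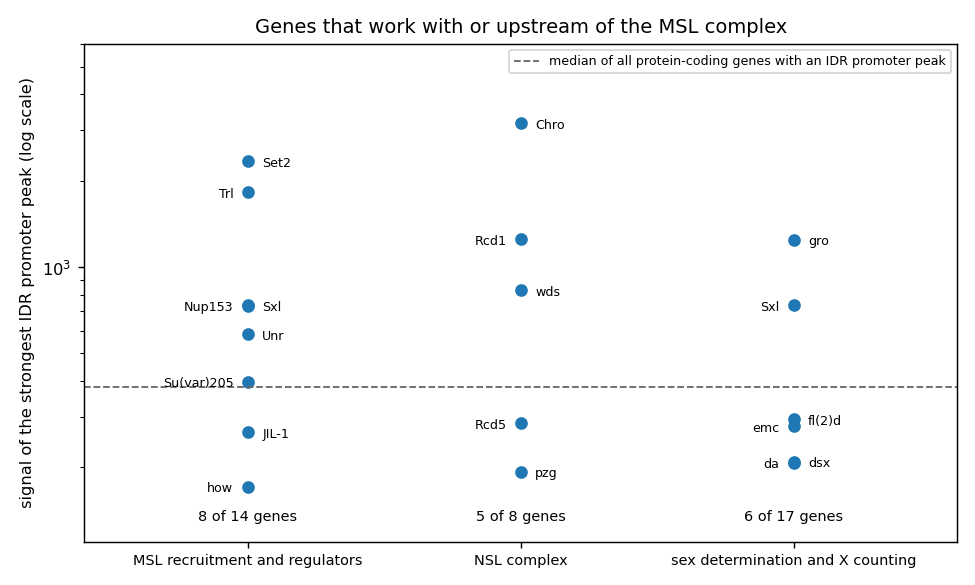
Signal (log scale) of the strongest IDR promoter peak of each gene in the 3 lists, 1 point for each gene with such a peak, with the counts of genes below and the median over all protein-coding genes with such a peak (382) as a dashed line. Chro, Set2 and Trl lie highest, and no dosage compensation gene of the 7 has a value to plot.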

How the data were processed

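ChIP-seq peak lists of 3 biological replicates in 1 group were used. Per the submitters' text descriptions, each replicate list came from that replicate's alignment and 1 file common to all, taken here as the control; all 3 alignments with that file gave the pooled list, and the IDR list derives from these 4. The signal is the score the authors deposited for each peak, on a scale that is not stated. The −log10 of the q-value was also deposited. Coordinates are dm6 per the labels. Not given in the sources used here are aligner, caller, IDR threshold and read depth, so no interval that needs depth was computed. Because replicate and pooled lists hold 30000 entries each, their lengths carry no depth.

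Start sites are from Ensembl release 115 (Release 6 coordinates). Summits are printed 1-based and were matched between lists within 100 bp. Motifs were searched on both strands within 100 bp of summits. Backgrounds apply each rule to all genes of a class. Counting was tested on simulated summits. Python 3.11.15, numpy 2.4.6, pandas 2.3.3 and matplotlib 3.10.9 were used. The genes named were the 7 members, the gene nearest each IDR summit counted at them, and up to 4 genes per list with the strongest promoter peak, other list genes by symbol only. A further rule, the genes most like the member with the strongest IDR promoter peak, named none because no member had one. Genes nearest to weaker summits were named after their positions were seen. The members and lists were chosen with earlier results of these data known. Alternatives were windows of 1, 2 and 10 kb or the body alone, other promoter and match distances, the stronger part of the IDR list, a −log10 q of at least 2 and leaving out each replicate.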

Additional observations from a re-analysis of the deposited data

How the results depend on the processing

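The member counts follow the window. Members with an IDR summit numbered 6 at 10 kb and 0 in the body alone or where a member's start had to be the nearest. Members with a pooled summit numbered 3 at 1 kb, in the body alone and by nearest start. The IDR summits numbered 2 at 1 kb, 3 at 2 kb, 16 at 10 kb, 0 in the body, 0 by nearest start and 3 in the stronger part of the IDR list; those found in every replicate numbered 2, 3, 13, 0, 0 and 2. A promoter distance of 1000 bp gave 1 member an IDR promoter peak, msl-1 through the CG10336 summit at 907 bp. In the stronger part of the IDR list the NSL list had 3 genes with a promoter peak and the sex determination list 3. The strongest signal at msl-1 was 2460 at 10 kb and 43.9 in the body. At mof it was 356 and at roX1 565 at 10 kb; at roX2 it was 189 at 1 and 2 kb and 84.9 in the body. With a match of 200 bp the mean percentile was 63.9 for mle and 56.4 for roX1. Of 95 values under alternatives 66 stayed within 1.5 times the main count, or within the replicate SD for a percentile, or equal for a signal. Alternatives that left a member without a summit or a replicate match gave no value and are not among the 95. This befell mof at 1 kb, at 2 kb and in the body, and mle at 1 kb, in the body and without replicate 3. Leaving out a replicate did not rebuild the IDR list but kept the IDR summits that both other lists held, so promoter counts could fall and not rise. It gave 4 to 5 summits found in every replicate kept, 7 to 8 recruitment genes, and 4 to 5 sex determination genes. No paired analysis was possible because there is 1 group. Read depth is unknown, so an absent summit is one not listed among 30000, not an absence of binding.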
